A study of Mus musculus with 21 samples.

Results

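The distal ends of the 19 mouse autosomes were followed in sperm DNA, each taken as the last 2 Mb of the chromosome. A CpG belonged to an end if it lay within 2 Mb of the largest position listed for its chromosome, a choice that used no methylation value. The 19 ends held 226612 of the 15544856 listed CpGs, or 1.46%, and corresponded to 19 of the 1200 windows of 2 Mb that tile the autosomes. The other 1181 windows, called the rest below, belong to the same chromosomes. The measurement comes from 1 bisulfite library of sperm from C57BL/6 mice, in which motile cells were taken by swim-up and mononucleosomal DNA was released with micrococcal nuclease, an enzyme that cuts between nucleosomes. The sources used here do not give the age of the mice or say whether several were pooled. The study addressed which histones stay in mouse sperm, and its title ties their retention to CpG density and methylation. It has 21 samples, of which 20 were not analysed here.

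Subtelomeres are the stretches next to the repeats that cap chromosomes. Mouse chromosomes are acrocentric, with the centromere close to one end, so the last positions of the assembly lie at the end away from the centromere. During sperm formation most histones are replaced by protamines, and the nucleosomes that remain are known to lie preferentially at CpG-rich, unmethylated DNA such as promoters in CpG islands.

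Of the autosomal promoter sequences of RefSeq (build GRCm38.p6, 250 bases before to 50 after the start of a gene), 12597 had 12 or more CpGs, and 11680 of these were placed on the listed CpGs by the spacing of their CpGs alone. Of those placed, 11678 fell on the chromosome that RefSeq names, whereas the mirrored spacings matched only 11 times. In the last 2 Mb 248 genes were placed. The following 8 promoters are printed because the results below turn on them: 5 partly methylated ones, from the outermost 200 kb and from germ cell genes, and 3 with low levels for comparison. Each runs 5′ to 3′ on the strand of its gene, and the capitals mark CpGs.
Csf2ra: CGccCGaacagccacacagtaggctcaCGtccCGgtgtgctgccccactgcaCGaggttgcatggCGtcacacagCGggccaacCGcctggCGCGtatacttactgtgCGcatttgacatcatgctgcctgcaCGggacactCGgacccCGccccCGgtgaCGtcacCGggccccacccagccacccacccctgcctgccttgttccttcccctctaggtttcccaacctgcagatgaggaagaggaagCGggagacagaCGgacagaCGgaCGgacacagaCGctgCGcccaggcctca
Tmem267: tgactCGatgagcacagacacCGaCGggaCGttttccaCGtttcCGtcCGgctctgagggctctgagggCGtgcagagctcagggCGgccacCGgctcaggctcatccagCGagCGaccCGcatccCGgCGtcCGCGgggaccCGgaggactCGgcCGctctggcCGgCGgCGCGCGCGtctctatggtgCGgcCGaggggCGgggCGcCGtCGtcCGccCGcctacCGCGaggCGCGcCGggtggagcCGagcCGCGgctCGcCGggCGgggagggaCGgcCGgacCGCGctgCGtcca
Ptchd3: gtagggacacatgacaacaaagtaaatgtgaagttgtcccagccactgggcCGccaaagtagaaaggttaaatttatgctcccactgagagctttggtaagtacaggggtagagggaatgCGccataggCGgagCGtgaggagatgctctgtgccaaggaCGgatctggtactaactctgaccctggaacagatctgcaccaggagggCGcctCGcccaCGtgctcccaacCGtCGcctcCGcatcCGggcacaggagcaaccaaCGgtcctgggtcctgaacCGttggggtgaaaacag
Tex19.1: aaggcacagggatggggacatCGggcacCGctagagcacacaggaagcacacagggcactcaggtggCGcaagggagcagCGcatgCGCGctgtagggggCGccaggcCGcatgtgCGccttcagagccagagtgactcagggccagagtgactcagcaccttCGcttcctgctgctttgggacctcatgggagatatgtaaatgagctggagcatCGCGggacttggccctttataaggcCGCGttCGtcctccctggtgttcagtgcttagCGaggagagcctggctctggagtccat
Topaz1: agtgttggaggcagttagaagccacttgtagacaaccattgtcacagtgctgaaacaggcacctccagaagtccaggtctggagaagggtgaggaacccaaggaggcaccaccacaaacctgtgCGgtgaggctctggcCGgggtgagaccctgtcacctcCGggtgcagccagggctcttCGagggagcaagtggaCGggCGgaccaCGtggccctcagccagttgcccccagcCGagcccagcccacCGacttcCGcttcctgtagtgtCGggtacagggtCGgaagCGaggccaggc
Noc2l: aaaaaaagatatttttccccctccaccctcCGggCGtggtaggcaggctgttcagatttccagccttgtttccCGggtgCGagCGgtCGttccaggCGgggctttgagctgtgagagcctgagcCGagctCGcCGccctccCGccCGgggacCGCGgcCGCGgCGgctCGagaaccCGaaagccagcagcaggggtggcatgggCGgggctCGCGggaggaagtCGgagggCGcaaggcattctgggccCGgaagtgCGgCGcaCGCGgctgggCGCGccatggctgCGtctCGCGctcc
Fgf3: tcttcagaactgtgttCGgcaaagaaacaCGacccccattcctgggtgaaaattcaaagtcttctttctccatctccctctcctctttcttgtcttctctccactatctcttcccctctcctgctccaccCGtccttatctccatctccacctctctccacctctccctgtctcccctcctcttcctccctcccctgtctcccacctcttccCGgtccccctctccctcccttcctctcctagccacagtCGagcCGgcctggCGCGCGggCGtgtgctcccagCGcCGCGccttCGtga
Rtel1: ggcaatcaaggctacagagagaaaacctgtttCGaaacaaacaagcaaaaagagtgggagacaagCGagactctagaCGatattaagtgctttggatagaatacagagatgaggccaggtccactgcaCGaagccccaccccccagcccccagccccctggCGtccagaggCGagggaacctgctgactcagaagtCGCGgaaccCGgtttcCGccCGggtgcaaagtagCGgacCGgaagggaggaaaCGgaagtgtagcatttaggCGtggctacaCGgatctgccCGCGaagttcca
Csf2ra encodes a chain of the receptor for the cytokine GM-CSF, Ptchd3 a protein with a patched domain, and Tex19.1 and Topaz1 proteins that mouse germ cells need. Noc2l encodes a nucleolar protein, Fgf3 a growth factor of inner ear development, and Rtel1 a helicase that protects telomeres. Csf2ra has 23 CpGs in its 300 bases, Tmem267 has 50, Ptchd3 and Fgf3 have 14 each, Tex19.1 has 16, Topaz1 has 13, Noc2l has 34 and Rtel1 has 18, against a median of 26 over the genes placed in the last 2 Mb. On the coordinates of the deposited table (mm9), the listed CpGs of the Csf2ra promoter span chr19:61304302-61304570 on the minus strand, those of Tmem267 chr13:120277035-120277324, those of Ptchd3 chr11:121691333-121691565, those of Tex19.1 chr11:121007228-121007480 and those of Topaz1 chr9:122656191-122656356, the last 4 on the plus strand. Those of Noc2l span chr4:155609947-155610168, those of Fgf3 chr7:152024283-152024562 and those of Rtel1 chr2:181054211-181054469, all on the plus strand.

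The library held 60995624 CpG reads (1 read can count at several CpGs), and a listed CpG had a median of 3 reads both in the last 2 Mb and in the whole table. The last 2 Mb held 784134 CpG reads, and 2.40% of their CpGs had 10 or more. CpGs above 19 reads were kept out of levels and read averages. They made up 0.145% of the CpGs of the last 2 Mb (328 CpGs) and 0.0805% of the rest, and took 2.98% of the reads in the last 2 Mb and 17.6% in the rest. With 1 library there is no biological replicate, no test between groups and no p-value. All intervals are 95% counting intervals, Wilson intervals where a level is given. They cover counting error only and take every CpG read as independent. They are therefore too narrow, because 1 read can count at several CpGs and amplified copies of 1 molecule could not be recognised. The spread among chromosomes is not part of them. Reads counted at promoters are likewise CpG reads and can come from fewer molecules.

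The first question was how rich in CpGs the chromosome ends are. The ends differed widely from each other, from CpG-rich ends on chromosomes 4, 11, 2 and 15 to ends on chromosomes 17, 18, 3 and 14 with fewer than 3 listed CpGs per kb. Pooled, the last 2 Mb held 5.96 listed CpGs per kb and the rest 6.34, a ratio of 0.941 (0.937 to 0.944). Over the 19 chromosomes the last 2 Mb averaged 5.96 ± 3.12 listed CpGs per kb and the rest 6.34 ± 0.66 (SD, n = 19 each). The lowest end was that of chromosome 17 with 2.58 per kb, against 7.04 per kb in the rest of that chromosome, the median end had 4.98 per kb, and the highest was that of chromosome 4 with 13.1 per kb, against 6.32 in its rest. The spread among ends was close to that among all 1200 windows of the same size, whose SD was 2.77 per kb. The pooled ratio turns with the length taken, since the last 5 Mb had 1.21 times the density of the rest.

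On 7 of 19 chromosomes (36.8%) the end was denser than the rest, namely on chromosomes 2, 4, 5, 7, 11, 15 and 16, where the same holds for 48.2% of all 2 Mb windows. The density was at least 1.5 times that of the rest on 2 chromosomes (10.5%), with a ratio of 2.07 on chromosome 4 and 1.51 on chromosome 2, against 15.3% of all 2 Mb windows. It was 1/1.5 or less on 7 chromosomes (36.8%), against 27.9% of all windows. These shares lie to the CpG-poor side of the background, but the ends were not all CpG-poor, and the density of an end was only loosely related to that of its own chromosome (Pearson r = 0.37 and Spearman rho = 0.36 over 19 chromosomes, r = 0.25 without chromosomes 4 and 11, given as a description).

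**Figure D1:**
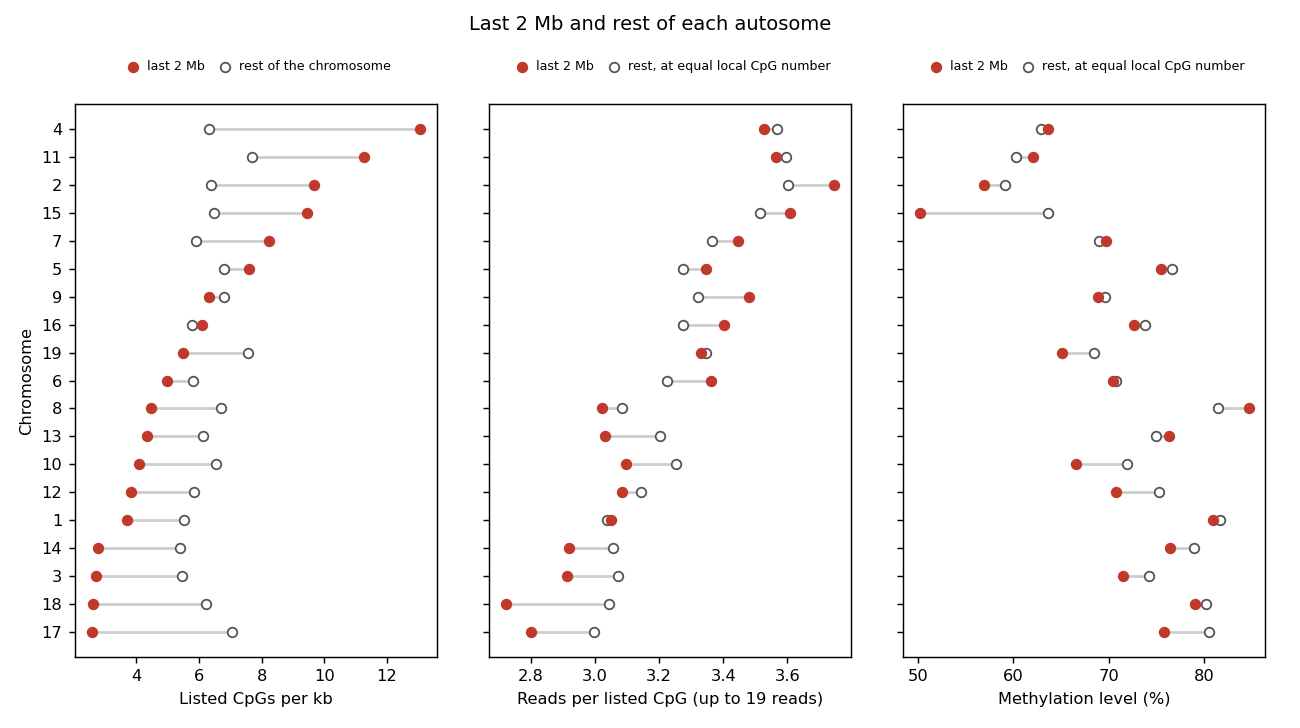
Each row is 1 autosome, sorted by the listed CpGs per kb of its last 2 Mb (filled), with the rest of the chromosome (open), for listed CpGs per kb, reads per listed CpG of up to 19 reads and methylation level in percent, the last 2 at equal local CpG number. Density of the ends runs from 2.58 on chromosome 17 to 13.1 on chromosome 4, and the widest gap in level is on chromosome 15, at 50.2% in the last 2 Mb against 63.6% in the rest.

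Within the last 2 Mb the listed CpGs thinned out towards the end. Counted from the last listed position inwards over all autosomes, the outermost 0.5 Mb had 4.81 listed CpGs per kb, the next 0.5 Mb had 5.47, the stretch from 1 to 1.5 Mb had 6.05 and that from 1.5 to 2 Mb had 7.52. Further in, the density was 8.66 per kb from 2 to 5 Mb and 8.99 per kb from 5 to 10 Mb. The lowest of the 20 steps of 100 kb was that from 200 to 300 kb, with 4.11 per kb, and the highest the innermost, with 8.30 per kb. The outermost 0.5 Mb was less dense than the stretch from 1.5 to 2 Mb on 16 of 19 chromosomes, by a factor of more than 2 on chromosomes 5, 8, 9, 10 and 11. Chromosomes 4, 13 and 17 were the exceptions. The decline is thus shared by most chromosomes, whereas the zone from 2 to 10 Mb is denser than the autosomal average.

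**Figure D2:**
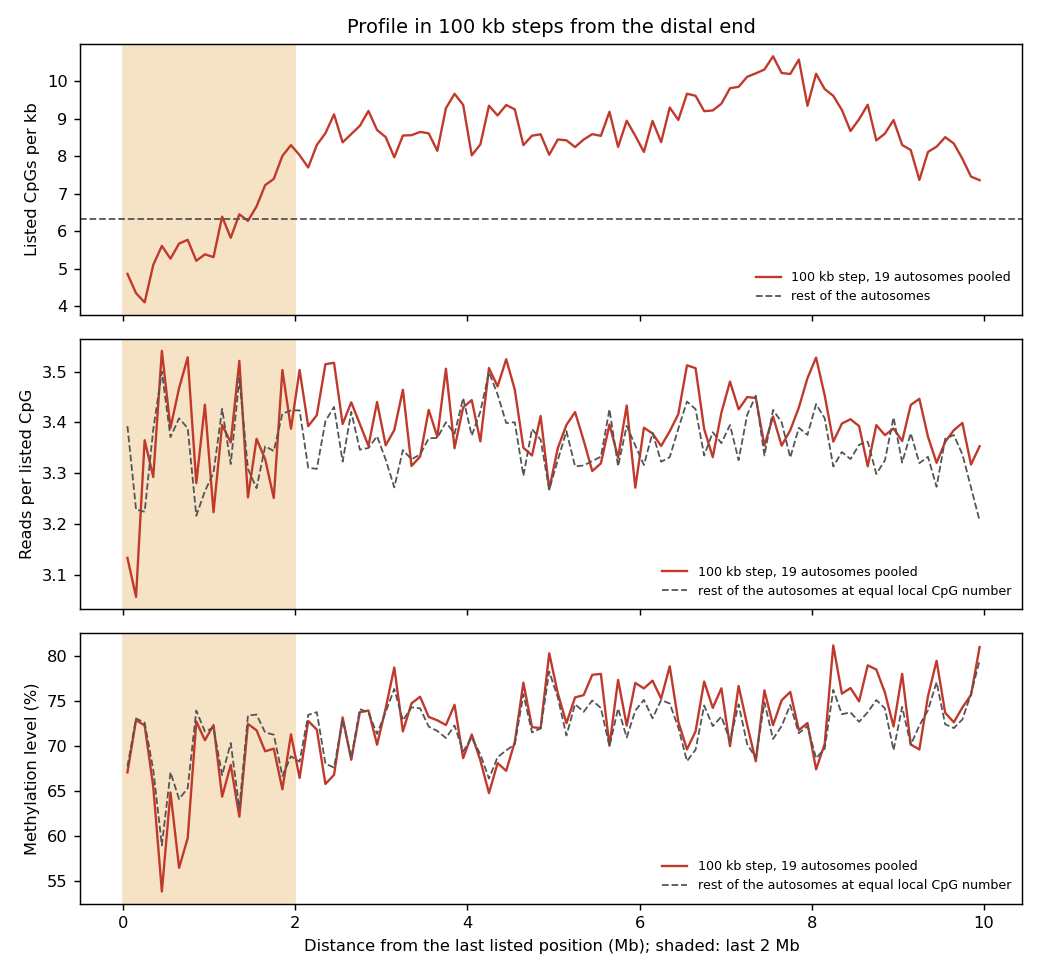
Listed CpGs per kb, reads per listed CpG and methylation level in percent of 100 kb steps pooled over the 19 autosomes, by distance from the last listed position in Mb, with the last 2 Mb shaded; dashed lines give the rest of the autosomes, at equal local CpG number in the lower panels. Density falls from 8.30 per kb in the innermost shaded step to 4.11 per kb at 200 to 300 kb, and the level of the steps dips furthest below the dashed line at 600 to 700 kb, with 56.5% against 64.1%. That pooled step includes the lowest single step, on chromosome 15, with 1587 listed CpGs and a level of 13.4%. The dip need therefore not be shared by the other chromosomes.

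The number of reads per listed CpG reflects, in this kind of library, how much nucleosomal DNA was recovered at a CpG, together with how well its sequence is read. The ends as a whole were recovered like the rest of their chromosomes. The last 2 Mb had 3.36 reads per listed CpG, against 3.27 in the rest. CpG-dense DNA has more reads, so the rest was reweighted within each chromosome to the local CpG numbers of its end, where the local CpG number counts the listed CpGs within 100 bp on either side. At equal local CpG number the values were 3.36 in the last 2 Mb and 3.35 in the rest, a ratio of 1.003 (1.0005 to 1.005).

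Single ends stood further apart. The ratio at equal local CpG number averaged 0.990 ± 0.043 (SD, n = 19), with the lowest value of 0.894 on chromosome 18, where the end had 2.72 reads per listed CpG against 3.04 in the rest, and the highest of 1.047 on chromosome 9, where the end had 3.48 against 3.32. The ratio was above 1 on 8 chromosomes (42.1%), against 45% of all 2 Mb windows. The rest had at least 5% more reads per listed CpG than the end on 4 chromosomes (21.1%; chromosomes 3, 13, 17 and 18), against 17.8%. When CpGs were instead compared at equal CpG number per 100 kb, these 4 ends lost that shortfall, with ratios of 1.06, 1.00009, 1.02 and 1.002 in that order, and 17 chromosomes in place of 8 had a ratio above 1. No end had a ratio 5% or more above 1, against 3.59% of all 2 Mb windows. Ends with more CpGs had more reads, with r = 0.87 and rho = 0.94 over the 19 ends (r = 0.93 without chromosomes 4 and 11). This is a description, and the ends share 1 library. Without the end of chromosome 2, the highest with 3.75 reads per listed CpG against 3.60 in its rest, the pooled ratio was 0.999, and with CpGs above 19 reads included it was 0.846.

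The methylation level, the share of methylated reads in percent, was lower in the chromosome ends, and chromosome 15 accounted for much of the distance. The last 2 Mb were 66.99% methylated (66.9 to 67.1) and the rest 73.98%. At equal local CpG number the rest stood at 68.8%, and the difference was −1.82 percentage points (−1.93 to −1.71). Leaving out chromosome 15 moved it to −0.681, so the size of the pooled difference rested on that 1 end. The difference was −0.473 points with no limit on reads, −7.33 at equal CpG number per 100 kb, −2.90 in the last 1 Mb, −0.684 in the last 5 Mb and 0.0179 among CpGs whose surroundings were themselves over 80% methylated, so its size depends strongly on these choices.

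Over the 19 chromosomes the level averaged 70.4% ± 8.40 in the last 2 Mb and 74.1% ± 1.77 in the rest (SD, n = 19 each). The lowest end was that of chromosome 15 with 50.2% (49.8 to 50.6), the median end had 70.7%, and the highest was that of chromosome 8 with 84.6% (84.2 to 85.1). At equal local CpG number the difference ran between −13.4 points on chromosome 15 and 3.22 points on chromosome 8, with a median of −1.13. The 3 lowest values after chromosome 15 were −5.37 on chromosome 10, −4.68 on chromosome 17 and −4.51 on chromosome 12. The level was lower than in the rest on 14 of 19 chromosomes (73.7%), against 47.6% of all 2 Mb windows, and lower by 2 points or more on 8 (42.1%), against 18.7%. One of the 8, chromosome 2 at −2.20, stood at 4.85 with no limit on reads, and chromosomes 12 and 19 at 0.768 and 0.233 in methylated surroundings. It was higher by 2 points or more on chromosome 8 only (5.26%), against 16.1% of windows. Lower levels at equal local CpG number were thus more common among ends than among 2 Mb windows at large, while no test of that excess is possible with 1 library. The opposite ends, next to the centromere, also had such chromosomes. The first 2 Mb were lower than their rest by 2 points or more on chromosomes 1, 3, 4, 7, 8, 9, 14 and 16. They were higher by as much on chromosome 5 only. The excess was thus not particular to the distal ends.

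Set among the windows of their own chromosomes, the ends of chromosomes 2 and 15 had the lowest level and the most reads per listed CpG, of 89 windows on chromosome 2 and of 50 on chromosome 15. At equal local CpG number the end of chromosome 15 also had the lowest difference of its 50 windows, and the end of chromosome 10 had rank 2 from the lowest of 63. With no account of local CpG number, denser ends had lower levels, with r = −0.68 and rho = −0.72 over the 19 ends (r = −0.69 without chromosomes 4 and 11), again as a description of CpGs that share 1 library. The density ratio of an end and its level difference at equal local CpG number had r = 0.059 and rho = 0.38. Without chromosomes 4 and 2 the value was r = −0.063.

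**Figure D3:**
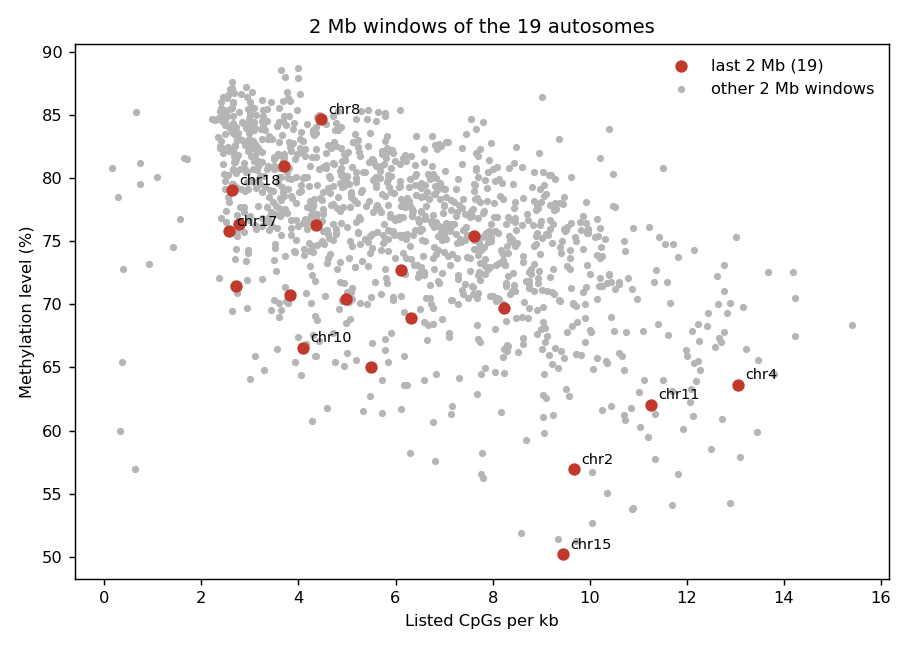
Methylation level in percent against listed CpGs per kb for the last 2 Mb of the 19 autosomes (large points) and all other 2 Mb windows (small points). The ends of chromosomes 15 and 2, at 50.2% and 56.9%, lie among the lowest windows at their density, and that of chromosome 8, at 84.6%, among the highest.

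Of 5 classes of local CpG number, those up to 14 had a lower level in the ends, by most points in DNA of intermediate CpG number. CpGs with 6 to 9 listed CpGs within 100 bp, itself included, were 64.5% methylated in the last 2 Mb and 70.3% in the rest, and those with 10 to 14 were 24.04% methylated in the last 2 Mb and 29.5% in the rest. The sparsest and the densest CpGs lay closer together. CpGs with 1 to 2 stood at 86.0% in the last 2 Mb and 86.9% in the rest, those with 3 to 5 at 82.6% and 84.5% in the same order, and those with 15 or more at 3.22% in the last 2 Mb and 3.27% in the rest. For those with 15 or more the intervals overlapped (3.12 to 3.33 in the last 2 Mb, 3.26 to 3.29 in the rest). In each of these 5 classes the end was lower than the rest, by any amount, on 12 or 13 of the 19 chromosomes. The share among all 2 Mb windows is not given for these counts. Weighted by reads, the classes from 1 to 5 carried 15.9% and 30.8% of the summed difference, those from 6 to 14 carried 37.0% and 15.9%, and the densest 0.379%. Without chromosome 15 the differences were smaller in every class, with −0.527, −0.892, −2.69, −2.23 and −0.0209 points from the lowest to the highest class. The reads per listed CpG in the last 2 Mb were 1.02, 0.999, 0.988, 1.01 and 0.980 times those of the rest from the lowest to the highest class. The densest class, which corresponds to CpG islands, held 8.90% of the CpGs of the last 2 Mb and 5.40% of those of the rest, although the ends had fewer CpGs per kb.

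The low level of chromosome 15 was deepest in 1 stretch but not limited to it. Its lowest 100 kb step, 600 to 700 kb from the end (chr15:102794821-102894820), was 13.4% methylated (12.6 to 14.2), with 15.87 listed CpGs per kb and 4.55 reads per listed CpG. The next step inwards (chr15:102694821-102794820) stood at 19.9% (18.9 to 21.0), with 13.01 per kb and 4.24 reads. Another low step, 400 to 500 kb from the end (chr15:102994821-103094820), holds the placed promoters of Cbx5, which encodes the heterochromatin protein HP1α, and Hnrnpa1, a splicing regulator, and was 34.1% methylated (32.6 to 35.7). The first 2 of these steps lie between the placed promoters of Calcoco1 and Cbx5, and so does most of the third. Between these promoters the RefSeq gene order has 9 Hoxc genes, transcription factors that give body segments their identity, and Smug1, a DNA repair gene. This stretch of 517 kb had 5771 listed CpGs, a level of 32.0% against 55.2% in the rest of the chromosome at equal local CpG number, and 1.0997 times its reads per listed CpG. Without the stretch, an exclusion chosen after its values were seen, the last 2 Mb of chromosome 15 were 59.5% methylated against 67.9% in the rest, a difference of −8.35 points. The end of chromosome 15 was thus still the lowest of the 19 by difference after its Hoxc genes were set aside.

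Taken step by step, 32 of the 365 steps with at least 200 CpGs (8.77%) were under 50% methylated, against 3.72% of all such 100 kb windows of the autosomes, and 5 of the 32 were on chromosome 15. Steps over 85% numbered 109 (29.9%), against 42.1% of all windows. Relative to the rest of the chromosome at equal local CpG number, 140 steps (38.4%) were lower by 2 points or more, against 27.2% of windows, and 108 (29.6%) were higher by 2 points or more, against 37.3%. Lower by any amount were 202 (55.3%), against 43.6% of windows. Of all 380 steps, 141 (37.1%) were denser than the rest of their chromosome, against 44.7% of windows, and 155 (40.8%) had a density ratio of 1/1.5 or less, against 36.7%. Steps with a ratio of 1.5 or more numbered 55 (14.5%), against 20% of windows. Low levels were thus more frequent, and high densities less frequent, among the steps than among windows at large. Reads per listed CpG at equal local CpG number were above those of the rest in 171 steps (46.8%), against 42.5% of windows, and 5% or more above them in 87 (23.8%), against 17.5%. In 133 steps (36.4%) the rest had at least 5% more than the step, against 32.2% of windows. The median step was 80.2% methylated with 4.80 listed CpGs per kb, so most of a typical end was ordinary methylated, CpG-poor DNA.

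The other steps at the extremes were single neighbourhoods. On chromosome 12 the step 1100 to 1200 kb from the end (chr12:120057156-120157155), with the promoter of Sp8, a transcription factor of limb outgrowth, was 22.7% methylated (21.3 to 24.1), with 4.16 reads per listed CpG. On chromosome 17 a step with only 3.96 listed CpGs per kb (chr17:93572332-93672331) was 35.8% methylated (33.5 to 38.2). The whole ends of chromosomes 12 and 17 were 70.7% and 75.8% methylated, with differences of −4.51 and −4.68 points at equal local CpG number. The densest steps were on chromosome 11, with 19.45 listed CpGs per kb at 1700 to 1800 kb from the end, where the level was 44.2%, and 18.01 per kb at 1300 to 1400 kb, where it was 36.5%. The second of these holds the placed promoters of Sirt7, a deacylase of the sirtuin family, Alyref, an mRNA export factor, Mafg, a small Maf transcription factor, and Anapc11, a subunit of the anaphase-promoting complex. At the other extreme, a step of chromosome 18 at 1500 to 1600 kb was 96.6% methylated (94.98 to 97.7), and a step of chromosome 9 at 200 to 300 kb had 1.26 listed CpGs per kb.

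**Figure D4:**
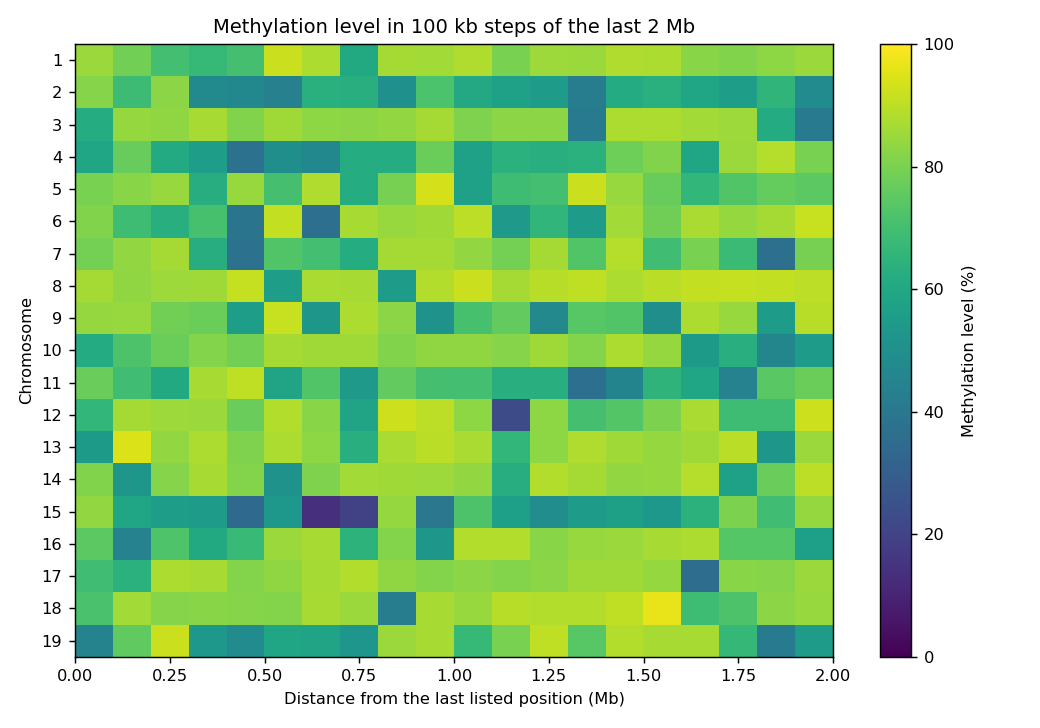
Methylation level in percent of each 100 kb step of the last 2 Mb, by distance from the last listed position in Mb (left to right) for the 19 autosomes (rows), from low (dark) to high (bright). The darkest cells are the steps at 600 to 800 kb of chromosome 15, with 13.4% and 19.9%, and the step at 1100 to 1200 kb of chromosome 12, with 22.7%.

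Unmethylated regions, runs of well-read CpGs with a level under 50%, were next counted along the ends. CpG-rich regions, those with 30 or more CpGs of at least 5 reads, numbered 230 in the last 2 Mb, or 6.05 per Mb, and 9042 in the rest, or 3.80 per Mb, a ratio of 1.59 (1.38 to 1.80). Their length, level and reads were close in the 2 places. The median length was 1521 bp in the last 2 Mb and 1520 bp in the rest, the median level 2.92% in the last 2 Mb and 2.84% in the rest, and the median of their mean reads 5.36 in the last 2 Mb and 5.47 in the rest. Shorter regions numbered 359, or 9.45 per Mb, against 19218, or 8.08 per Mb, with a median level of 12.9% in the last 2 Mb and 18.4% in the rest.

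The CpG-rich regions were concentrated on a few chromosomes. Of the 230, 140 lay on chromosomes 2, 4, 11 and 15, and 6 chromosomes had 3 or fewer. The end had more per Mb than the rest on 8 chromosomes and fewer on 11. The counts ran up to 38 on chromosome 2, or 19 per Mb against 4.18 in the rest, and down to 1 on chromosome 18. Chromosome 15 also had 83 of the 359 shorter regions. The longest CpG-rich region was on chromosome 17 (chr17:93598192-93603404), with 5213 bp and a level of 3.81% (2.63 to 5.48), and lies in the low step of that chromosome described above. The region of chromosome 4 with 4049 bp (chr4:154008802-154012850) overlaps the placed promoter of Prdm16, a regulator of brown fat, at 3.47% (2.79 to 4.31), and one in the Hoxc stretch (chr15:102764052-102767929) had 3878 bp and 7.31% (5.86 to 9.10).

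Outside all such regions the ends were somewhat less methylated when local CpG number was not taken into account. In methylated surroundings at equal local CpG number, the pooled difference given above was close to none. The CpGs outside were 84.9% methylated in the last 2 Mb and 86.1% in the rest, and the difference averaged −1.004 ± 2.37 points over chromosomes (SD, n = 19), lower in the end on 14 and higher on 5. The share of all 2 Mb windows that were lower in this way is not given. Chromosome 15 again had the lowest value, −8.58 points, with 77.8% in the end against 86.4% in the rest, and weighed heavily on the average. It was followed by chromosome 10, with 81.6% in the end against 85.9% in the rest. On chromosome 10, RefSeq lists 86 protein-coding genes from the innermost placed promoter, that of Pa2g4, to the end, and 58 of them are olfactory receptor genes. The outermost promoter placed on that end was that of Ormdl2, a regulator of sphingolipid synthesis, 1734 kb from the last listed position, with a level of 0.971% (0.172 to 5.30).

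Promoters with many CpGs had similarly low levels at the chromosome ends and elsewhere. The 248 placed in the last 2 Mb had a median level of 1.40% and the 9970 placed in the rest one of 1.54%. A level under 10% was found for 237 (95.6%) in the last 2 Mb, against 94.4% in the rest. They had 4.59 ± 1.84 reads per listed CpG in the last 2 Mb and 4.52 ± 1.75 in the rest (SD over promoters). Placed promoters were most numerous on chromosomes 11 (49), 4 (35), 2 (33) and 15 (26), the same 4 chromosomes that held most CpG-rich regions. Chromosome 17 had 2, and promoters of chromosome 18 were not analysed here.

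All 13 housekeeping genes drawn up as a list were under 10%, with a median level of 1.42% and a highest of 4.84%. They include Psma7, a proteasome subunit, at 3.77% (1.74 to 7.99), Eif3a, a translation initiation factor, at 1.099% (0.302 to 3.92), and Actg1, a cytoplasmic actin, at 0.543% (0.0960 to 3.01). All 9 genome maintenance genes were under 10% too, with a highest level of 5.04%. Among them Rtel1 stood at 1.45% (0.256 to 7.76), 693 kb from the end of chromosome 2, Espl1, the separase that parts sister chromatids, at 1.54% (0.272 to 8.21), and Cbx5 at 1.58% (0.538 to 4.54). The 11 developmental regulators were likewise all under 10%, with a median of 1.94%. Fgf3 and Fgf4, neighbouring growth factor genes on chromosome 7, stood at 1.41% (0.387 to 4.99) and 1.053% (0.186 to 5.72), and Sp8 at 3.14% (1.45 to 6.68). The 3 lists thus showed the low levels of the placed promoters in general.

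Fgf3 was among the best recovered promoters of the ends, with 10.1 reads per listed CpG against 3.52 at Fgf4. Cd46, a complement regulator on chromosome 1, had 10.2 and Dennd5b on chromosome 6 had 9.70. At the low end, Tcaim on chromosome 9 had 1.09 and Mrps30, a mitochondrial ribosomal protein gene, had 1.38. Tcaim had no methylated read of 12 and Mrps30 none of 18, with upper bounds of 24.2% and 17.6%. The levels of these poorly read promoters are thus only loosely known. With that limit, promoters of low observed level spanned nearly the whole range of reads.

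Germ cell genes were the exception among the lists, although the list has only 5 members, and 3 of these stood at 10% or more. Topaz1 had 40.0% (26.3 to 55.4) from 40 reads over 13 CpGs, Tex19.1 had 28.4% (18.97 to 40.1) from 67 reads over 16 CpGs, and Gtsf1, a factor of the piRNA pathway that silences transposons, had 19.3% (12.2 to 29.04) from 83 reads over 13 CpGs. Nanos1, an RNA-binding protein of the Nanos family, stood at 3.64% (1.42 to 8.98) and Tcfl5, a transcription factor of spermatogenesis, at 5% (2.44 to 9.96). The list was drawn up once the placed genes were known by name. The 3 genes at 10% or more have 13 to 16 CpGs, and among placed promoters of 12 to 19 CpGs 8 of 75 (10.7%) were at 10% or more in the last 2 Mb, against 442 of 2978 (14.8%) in the rest. Over all CpG numbers the shares were 4.44% in the last 2 Mb and 5.597% in the rest.

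In the last 2 Mb 11 promoters were at 10% or more. Besides the 3 germ cell genes they are Csf2ra, Gm46878, Tmem267, 3110070M22Rik, Ptchd3, Gm11772, Slc38a10, which encodes an amino acid transporter, and Tmprss2, which encodes a cell surface protease. Of the 20 promoters placed within 200 kb of a last listed position 5 were at 10% or more, of the 42 at 200 to 500 kb 2, of the 53 at 500 to 1000 kb 1, of the 65 at 1000 to 1500 kb 1, and of the 68 at 1500 to 2000 kb 2. The 5 outermost are on 4 chromosomes, since Tmem267 and 3110070M22Rik overlap on opposite strands.

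Csf2ra, 38.0 kb from the end of chromosome 19, was the most methylated, with 55.1% (44.7 to 65.0) from 89 reads over 20 of its 23 CpGs. Gm46878, 69.8 kb from the end of chromosome 4, had 42.9% (30.02 to 56.7), and Ptchd3, 152 kb from the end of chromosome 11, had 21 methylated reads of 70 (20.5% to 41.5%). Nearness to the end did not go with methylation in every case. Noc2l, 19.9 kb from the end of chromosome 4 and so nearer to it than Gm46878, stood at 1.60% (0.440 to 5.65). Tmem196 on chromosome 12, 72.7 kb from the end, stood at 1.72% (0.305 to 9.14), and Mettl4, a methyltransferase gene of chromosome 17 at 123 kb, at 0.505% (0.0892 to 2.80).

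**Figure D5:**
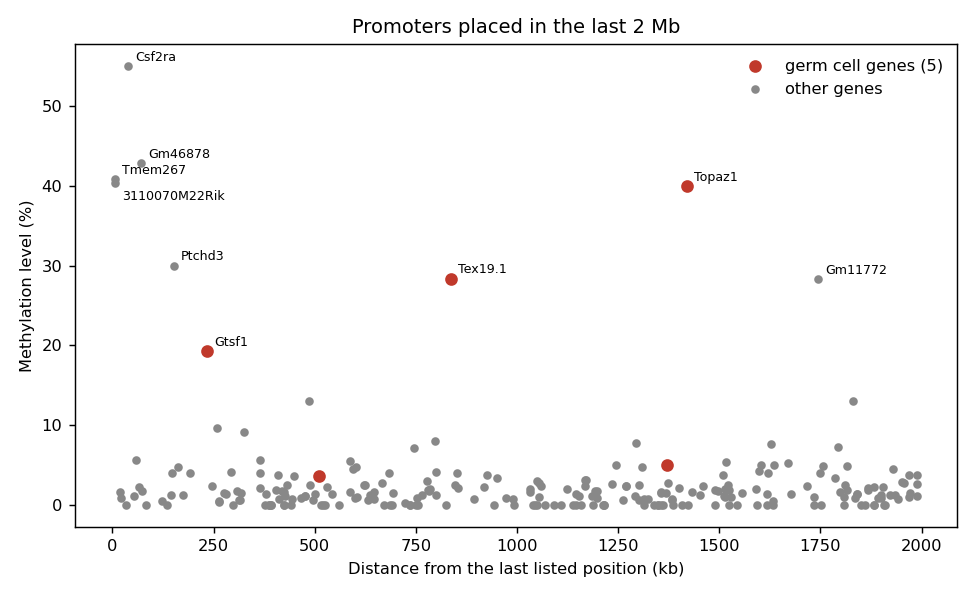
Methylation level in percent of the 248 placed promoters against their distance in kb from the last listed position of their chromosome, with the 5 germ cell genes as large points and promoters above 20% and Gtsf1 named. Most points lie below 10%, and the named ones, among them Csf2ra at 55.1% and Topaz1 at 40.0%, stand apart from them.

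The outermost 100 kb of chromosome 13 differed from the other ends in its read numbers. This step (chr13:120184264-120284263) held 1147 listed CpGs, of which 99, or 8.63%, had more than 19 reads, the largest share among the steps, and the CpGs of up to 19 reads had 4.27 reads each and a level of 54.6% (53.1 to 56.0). The step next to it (chr13:120084264-120184263) had no CpG above 19 reads and was 94.9% methylated (93.8 to 95.7). The overlapping promoters of Tmem267 and 3110070M22Rik lie in the outermost step, about 7 kb from the last listed position. Tmem267 had 40.8% (35.9 to 46.0) with 9.00 reads per listed CpG, and 3110070M22Rik had 40.3% (35.4 to 45.5) with 10.5, among the highest read numbers of the placed promoters. These values leave out the CpGs above 19 reads, which were 10 of 50 at Tmem267 and 14 of 48 at 3110070M22Rik. With them included, 309 of 700 reads at 3110070M22Rik were methylated. Each of its 48 CpGs then had between 4 and 29 reads, each had at least 1 methylated read and none was methylated in all reads. Intermediate methylation and high read numbers thus occurred together at these overlapping promoters, and whether several copies of the sequence share these reads was not tested. Other promoters placed in the outermost step were not alike. Paip1 had 2.29% (1.17 to 4.46) with 7.27 reads per listed CpG, and 4833420G17Rik had 0% (upper bound 6.76%) with 2.94. Neither had a CpG above 19 reads. The steps with the next largest shares above 19 reads were that at 100 to 200 kb of chromosome 1, with 5.72%, and the outermost of chromosome 2, with 2.93%, and of chromosome 19, with 2.17%, the one that holds Csf2ra.

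The opposite end of each chromosome gave a last comparison. The first 2 Mb of listed positions, next to the centromere, had 5.61 listed CpGs per kb, 3.35 reads per listed CpG and a level of 69.4%, against the 5.96, 3.36 and 66.99% of the last 2 Mb. At equal local CpG number the level of the last 2 Mb was 0.105 points below that of the first 2 Mb (a difference of −0.105), and the reads per listed CpG were 0.985 times as many. Single chromosomes went widely both ways. At equal local CpG number the last 2 Mb were less methylated than the first on 9 of 19 chromosomes, with differences between −12.8 points on chromosome 15 and 12.1 points on chromosome 14 and an average of 0.272 ± 5.61 (SD, n = 19), and had more reads per listed CpG on 6. The first 2 Mb of chromosome 14 had only 0.653 listed CpGs per kb. Against the rest of that chromosome at equal local CpG number, its first 2 Mb stood at −19.2 points and its last 2 Mb at −2.57. With no account of local CpG number, the last 2 Mb were denser on 8 chromosomes, less methylated on 9 and had more reads per listed CpG on 7.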

How the data were processed

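Methylation was measured in 1 bisulfite library of mononucleosomal DNA from mouse sperm. The deposited table holds, per the file headers, the chromosome and start of each CpG with 2 raw counts, total reads and methylated reads, which carry no normalization. Per the submitters' processing notes, Bowtie and mm9 were used; the sources used here do not give alignment settings, conversion rate or the treatment of duplicate or multiply placed reads. CpGs without reads are not listed, so densities are lower bounds. Whether positions count from 0 or 1 is not stated, which leaves a possible shift of 1 bp.

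The members and lists were chosen with earlier results of these data known. Density is listed CpGs per kb. Levels and reads per listed CpG use CpGs of up to 19 reads. The rest of each chromosome was weighted to the local CpG numbers (listed CpGs within 100 bp on each side, with 25 and more pooled) of its last 2 Mb. Windows of 2 Mb and 100 kb (levels with 200 CpGs or more) give the background. Unmethylated regions were runs of at least 4 CpGs of 5 or more reads whose level averaged over 3 neighbours stayed under 50%, gaps being at most 500 bp, and CpG-rich from 30 CpGs.

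Named steps and regions are the 5 at each extreme. No mm9 annotation was used here, and names were planned only from a table of that build. Placing RefSeq promoters of GRCm38.p6 by CpG spacing (12 or more CpGs, at least 70% listed, no other listed CpG between, 1 place) was added after the data had been seen; no coordinates were converted. Named promoters are the outermost of each chromosome, the 8 highest levels and the 5 highest and 5 lowest read numbers. The 4 gene lists were drawn up from the names of placed genes. Scripts, tested on simulated data, ran in Python 3.11.15 with matplotlib 3.10.9, scipy 1.17.1, pandas 2.3.3 and numpy 2.4.6.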

Additional observations from a re-analysis of the deposited data

How the results depend on the processing

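No paired analysis was possible because there is 1 library. Depth (a median of 3 reads) limits single CpGs, and gene values rest on 1 library. The pooled density ratio was 0.810 in the last 1 Mb (4 chromosomes denser than the rest) and 1.21 in the last 5 Mb (14 denser), the opposite direction; it was 0.936 with the first 5 Mb left out of the rest and 0.936 with estimated unlisted CpGs. Leaving out 1 chromosome gave 0.878 (chromosome 4) to 0.976 (chromosome 17). The pooled reads ratio was 1.006 in the last 1 Mb, 1.01 in the last 5 Mb, 0.846 with no limit on reads, 1.02 without equal local CpG number, 1.04 at equal CpG number per 100 kb (17 chromosomes above 1) and 1.006 with a truncated negative binomial estimate; leaving out 1 chromosome gave 0.999 (chromosome 2) to 1.005 (chromosome 18). The pooled level difference was −2.90 points in the last 1 Mb, −0.684 in the last 5 Mb (9 chromosomes lower), −0.473 with no limit on reads, −6.52 without equal local CpG number, −1.97 with 5 classes, −1.33 with 250 bp on each side, −7.33 at equal CpG number per 100 kb, 0.0179 in methylated surroundings, −2.02 from 5 reads and −2.14 from 10 reads; leaving out 1 chromosome gave −2.25 (chromosome 11) to −0.681 (chromosome 15). The cause of these moves was not tested. Single chromosomes crossed the line of no change in 77 of 514 cases, and the counts by direction alone change with them. In the last 1 Mb, for example, chromosomes 5, 11 and 16 were no longer denser than the rest. In 61 of the 77 cases the value as reported had not passed its threshold of size, so that no call by size was lost. The other 16 had passed it and are given here by setting. In the last 1 Mb, the level difference of chromosome 8 was −1.13. In the last 5 Mb, where 7 chromosomes crossed in density, the ratios of chromosomes 8, 10 and 14 were 1.27, 1.24 and 1.24, and the level differences of chromosomes 14 and 19 were 0.331 and 1.16. With no limit on reads, the reads ratio of chromosome 13 was 1.02 and the level difference of chromosome 2 was 4.85. Without equal local CpG number, the level differences of chromosomes 14 and 17 were 0.391 and 3.04. At equal CpG number per 100 kb, the reads ratios of chromosomes 3, 13, 17 and 18 were 1.06, 1.00009, 1.02 and 1.002. In methylated surroundings, the level differences of chromosomes 12 and 19 were 0.768 and 0.233. The ratio of CpG-rich regions per Mb, 1.59 as reported, was 1.58 and 1.57 under other region settings. The exclusion of the stretch between Calcoco1 and Cbx5 was chosen after seeing the data.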

Other observations

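The last 2 Mb of the X chromosome, which stand outside the autosomal comparison, held 5696 listed CpGs, or 2.85 per kb, with 2.88 reads per listed CpG. They were 71.2% methylated (95% Wilson interval 70.5 to 71.9). The rest of the X chromosome had 2.56 listed CpGs per kb, 2.05 reads per listed CpG and a level of 73.6% (73.5 to 73.7). CpGs above 19 reads made up 1.46% of the X end and 0.0677% of the rest of the X.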
